A study of Mus with 3 samples.

Results

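Among wild-type (WT) CD8 T cells from MC38 tumors, 475 cells that belonged to large T cell receptor families (expanded clonotypes) were compared with 127 cells whose receptor was seen in a single cell. A cell was taken as WT when its barcode carried 10 or more unique molecules (UMIs) of the WT hashtag antibody, and at least 3 times as many as of the next hashtag. It also needed 500 or more gene UMIs, a clonotype number in the deposited receptor annotation, at least 1 Cd8a UMI and 0 Cd4 UMIs. Clonotype size was the number of WT barcodes that shared a clonotype number, with 10 or more called expanded and 1 called single-cell. Of 5600 barcodes with 500 or more UMIs in the series, 1777 were WT, 1290 of these had a clonotype and 792 passed the CD8 gate. These 792 cells fell into 197 clonotypes, of which 20 were expanded and 127 were single-cell.

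The study asked how the retinoic acid receptor RARα shapes tumor-infiltrating T cells. MC38 colon carcinoma cells were grown under the skin of WT (C57BL/6 by the genotype label), RARα-KO (dLck-Cre crossed to floxed Rara) and RARα-TG (CD2-Rara) mice, and tumors were collected on day 16. From each genotype, cells were tagged with 1 of 3 hashtag antibodies, 30000 CD45.2+ CD3+ T cells were sorted, 10000 unsorted tumor cells were added, and all were pooled into a single 5′ gene expression and receptor library. Labels elsewhere in the record name the spleen and naive CD8 T cells, which the tumor protocol does not match. The Cre is driven by a distal Lck promoter and the Rara transgene by the CD2 promoter, so both act in T cells. The number of WT mice in the pool was not given, nor whether the WT pool held mice with the Cre, and WT counts as 1 sample. Every interval below is therefore a 95% interval for counting error only, with no test and no p-value, and neither cells nor clonotypes stand in for mice.

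A T cell receptor pairs an α chain (TRA) and a β chain (TRB), each assembled from V and J segments (and a D segment in the β chain), with bases trimmed and added where segments join. The joined stretch, CDR3, contacts the antigen peptide, and cells that share both chains usually descend from 1 founder that divided. In tumors, dividing CD8 cells usually lose lymph node homing and stem-like genes, and gain granzymes, perforin and inhibitory receptors such as PD-1 under lasting antigen contact. Retinoic acid receptors are ligand-controlled transcription factors.

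The CDR3 sequences of 8 expanded clonotypes are shown because the results below turn on them: the 4 largest (clonotypes 5 to 8), the 4 with the highest Gzma (5, 17, 33 and 35), and 25, which is nearly identical to 8. Each runs 5′ to 3′, and capitals mark the bases between the end of the V match and the start of the J match, where the D segment and added bases lie.
Clonotype 5, TRBV31 and TRBJ1-6: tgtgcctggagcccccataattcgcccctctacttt
Clonotype 6, TRBV31 and TRBJ2-4: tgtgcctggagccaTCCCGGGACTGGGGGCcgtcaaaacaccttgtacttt
Clonotype 7, TRBV5 and TRBJ2-5: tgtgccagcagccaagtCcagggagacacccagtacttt
Clonotype 8, TRBV16 and TRBJ2-7: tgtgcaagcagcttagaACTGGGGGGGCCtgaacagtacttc
Clonotype 25, TRBV16 and TRBJ2-7: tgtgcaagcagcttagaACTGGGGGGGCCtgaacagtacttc
Clonotype 17, TRBV12-1 and TRBJ2-7: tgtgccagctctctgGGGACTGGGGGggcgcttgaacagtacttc
Clonotype 33, TRBV31 and TRBJ2-3: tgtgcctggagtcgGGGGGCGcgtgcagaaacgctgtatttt
Clonotype 35, TRBV29 and TRBJ1-4: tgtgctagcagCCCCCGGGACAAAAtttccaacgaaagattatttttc

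Clonotypes 8 and 25 had the same 42-base TRB sequence, and their TRA sequences, both from TRAV7D-2 and TRAJ7, differed at 1 of 39 bases. That difference was C12T from clonotype 8 to clonotype 25, counted from 1 at the first CDR3 base.
Clonotype 8, TRA: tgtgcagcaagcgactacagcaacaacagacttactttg
Clonotype 25, TRA: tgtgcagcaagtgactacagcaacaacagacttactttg

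No other CDR3 was shared between expanded clonotypes, so the 20 clonotypes held 19 distinct TRB amino acid sequences from 12 TRBV genes. All 20 had both chains, and 3 of them (7, 16 and 19) had 2 TRA chains. In the TRB sequences, 0 to 16 bases lay between the V and J matches, with a median of 6.5, and clonotype 5 was at 0. TRBV31 was used by 4 of the 20 expanded clonotypes (20%, 5.73 to 43.7) and by 5 of 122 single-cell clonotypes with a TRB (4.10%, 1.34 to 9.31). Those 4 clonotypes held 152 cells, 32.0% of the expanded class. Single-cell clonotypes 457 and 458, without a TRA, carried the TRB CDR3 of expanded clonotype 28, which used TRBV31, so they may belong to it. TRAJ7 was used by 5 of 20 expanded clonotypes (25%, 8.66 to 49.1) and 11 of 94 single-cell clonotypes (11.7%, 5.99 to 19.97). Both pairs of intervals overlap.

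Expanded clonotypes made up 60.0% of the WT CD8 cells with a clonotype (56.5 to 63.4) and single-cell clonotypes 16.0% (13.5 to 18.8), with 190 cells in clonotypes of 2 to 9 cells. The 9 clonotypes of 20 or more cells alone held 327 cells, and the largest, clonotype 5, had 70 WT cells, 62 of them in the CD8 gate. Counting cells outside the gate, the expanded clonotypes held 514 WT cells, of which 38 had neither a Cd8a nor a Cd4 UMI and 1 had a Cd4 UMI. The CD8 gate thus kept 475 of the 514 cells. The single-cell class is less well defined: 33 of its 127 cells lacked a TRA and 5 lacked a TRB. The TRB CDR3 of 6 of them, all without a TRA, was that of expanded clonotype 8, 28 or 36. Of the 20 expanded numbers, 4 (10, 16, 25 and 40) also occurred in 1 or 2 barcodes called RARα-KO or RARα-TG.

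The expanded class summed to 3353492 gene UMIs and the single-cell class to 752271, with medians of 6050 and 4283 UMIs and 2117 and 1658 genes per cell. Median mitochondrial shares were 0.917% and 1.18%, and ribosomal protein gene shares 22.3% and 26.8%. Levels are given below as CPM, the UMIs of a gene per 1000000 gene UMIs of the class. Cd4 was at 0 UMIs by the gate. The NK receptor gene Ncr1, the γδ T cell gene Trdc and the epithelial genes Krt8 and Krt18 were at 0 UMIs in both classes. Other members of these lists were found. NK cell markers, Eomes among them, summed to 14.6 CPM in expanded and 31.9 CPM in single-cell clonotypes, and γδ T cell markers to 17.0 and 10.6 CPM. For both lists, 0 cells held 10 or more UMIs. CD4 T cell markers, Ctla4 and Il2ra among them, summed to 314 and 209 CPM. Summed markers of MC38 and stromal cells were at 97.2 CPM in expanded and 237 CPM in single-cell clonotypes, with 3 and 2 cells at 10 or more such UMIs, and B cell markers at 4.17 and 27.9 CPM. Myeloid markers stood at 17.3 and 11.96 CPM. The deepest cell of the single-cell class held 55299 UMIs, 7.35% of the class, and 145 stromal marker UMIs. Ratios without this cell and the others with 10 or more marker UMIs of another cell type (MC38 or stromal, myeloid or B cell) are given below for some genes.

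The comparison covered 6791 genes with at least 0.1 UMIs per cell in either class, without T cell receptor genes. In expanded clonotypes, 256 genes were higher by 2-fold or more (3.77%) and 269 were lower by as much (3.96%). With every clonotype given equal weight, 513 were higher (7.55%) and 315 lower (4.64%), and 203 (2.99%) and 182 (2.68%) were so in both calculations. Above the single-cell level in 20 of 20 expanded clonotypes were 74 genes (1.09%), and below it in all 20 were 169 (2.49%). Those above it in at least 15 numbered 1255 (18.5%) and those below it in at least 15 numbered 1603 (23.6%). The median log2 ratio of all genes was 0.03. For 74 of the 269 lower genes, 1 single cell held 50% or more of the UMIs of its class. Without the cells that held 10 or more marker UMIs of another cell type, 199 genes were lower, 160 of them among the 269.

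**Figure D1:**
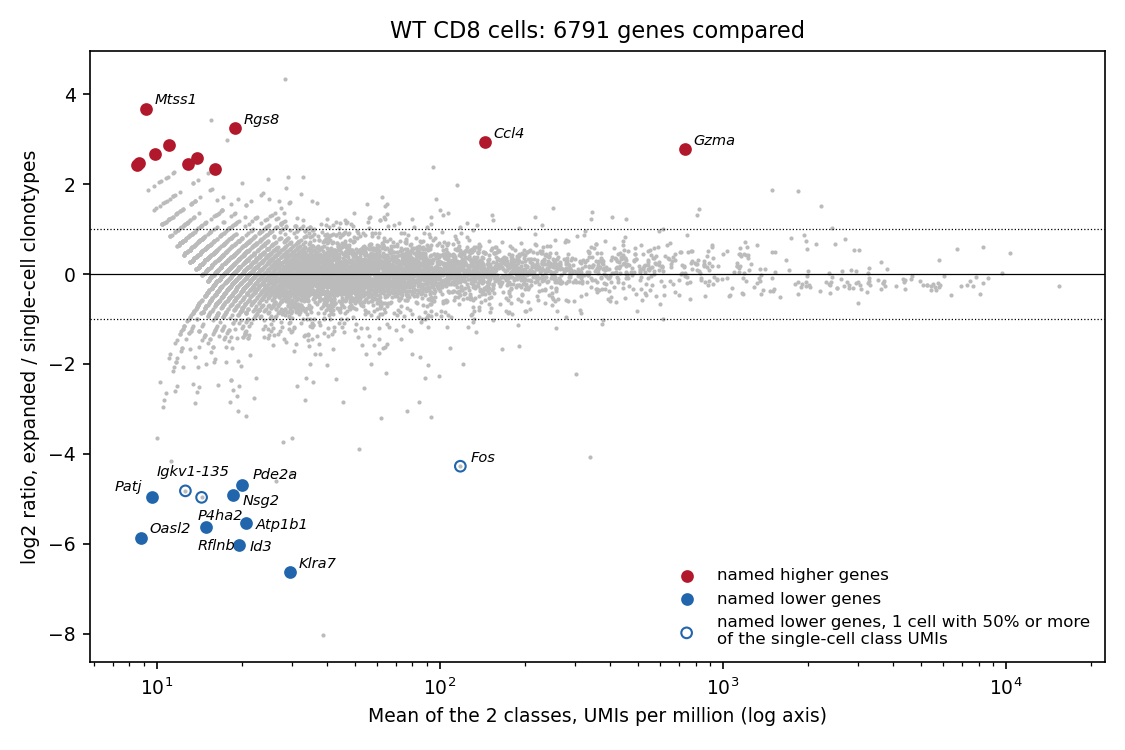
The log2 ratio of expanded to single-cell clonotypes (vertical axis) against the mean level of the 2 classes in CPM (horizontal, log axis) for 6791 genes, with dotted lines at 2-fold. Red and blue points are the genes named in each direction, and open circles are named lower genes with 50% or more of their single-cell UMIs in 1 cell; Gzma and Ccl4 stand apart among the higher genes by level, Klra7 has the lowest ratio of the labelled genes at −6.62, and Rgs8, Atp1b1 and Igkv1-135, at 0 UMIs in 1 class, are drawn at the value for 3 UMIs.

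Genes of the killing machinery stood higher in expanded clonotypes. Of 14 cytotoxic genes compared, 7 were higher by 2-fold or more and 0 lower, with a median log2 ratio of 0.87 (1.28 with clonotypes weighted equally) against 0.03 over all genes. Gzmb, granzyme B, a protease that triggers target cell death, was at 3283 CPM in expanded and 1155 CPM in single-cell clonotypes, a log2 ratio of 1.51 (1.41 to 1.61). Across the 20 clonotypes Gzmb ran from 621 through a median of 3021 to 10385 CPM, and 18 stood above the single-cell level. Nkg7, a cytotoxic granule protein, was at 3244 against 1600 CPM, a log2 ratio of 1.02 (0.93 to 1.11), and 20 of 20 clonotypes, from 1634 to 4211 CPM, were above. Without the 6 cells of either class that held 10 or more marker UMIs of another cell type, the Nkg7 ratio was 0.96. Prf1, perforin, which opens pores in the target membrane, was at 368 against 133 CPM (log2 ratio 1.47, 1.17 to 1.78) and above in 18 of 20. Gzmb and Prf1 were thus higher in nearly every clonotype, and Nkg7 in each.

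Other granzymes were less even between clonotypes. Gzma, granzyme A (chr13:113093824-113100981, GRCm38), had 4287 UMIs in expanded and 141 in single-cell clonotypes, 1278 against 187 CPM, a log2 ratio of 2.77 (2.53 to 3.02). Its clonotype values spanned 16.6 to 5947 CPM with a median of 425, and 15 of 20 lay above the single-cell level. Gzmf was at 2884 against 808 CPM (log2 ratio 1.84, 1.72 to 1.96), from 120 to 9692 CPM among clonotypes and above in 14. Gzmc, Gzmd and Gzme had ratios of 0.22, 0.67 and 0.36, each above in only 7 or 8 clonotypes, and 1 single cell held 30.4% to 39.1% of the single-cell UMIs of these 3 genes. Gzmg rested on 95 and 2 UMIs, with a log2 ratio of 3.41 (1.52 to 6.48) that was 2.77 without clonotype 12. Gzmb to Gzmg lie side by side on chromosome 14 and are close copies, so UMIs may be split between them. Fasl, a death ligand, had a log2 ratio of 0.72, and Serpinb9, which shields the cell from its own granzyme B, 0.51.

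The share of cells with a UMI told the same for Gzmb, with 80.0% of expanded and 38.6% of single-cell cells. Thinned to 1000 UMIs per cell, the shares were 62.9% and 25.98%. In 158 MC38 or stromal cells (10 or more UMIs of their markers), of median depth 32586.5 UMIs, 3.16% had a Gzmb UMI. After thinning 0 of 157 did, which allows a share of up to 1.91%, so the single-cell share lay above this background. Nkg7 was found in 99.8% and 92.1% of cells, and in 90.9% and 67.7% after thinning, against 0.633% of the MC38 or stromal cells.

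**Figure D2:**
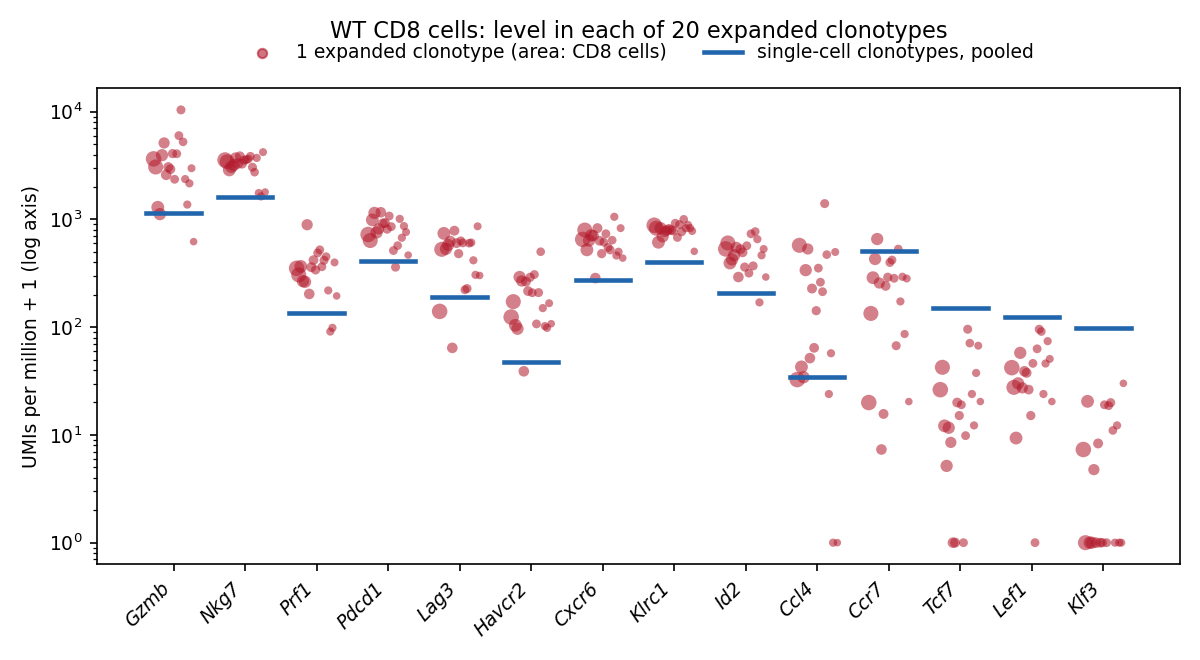
Level of 14 genes (CPM plus 1, log axis) in each of the 20 expanded WT clonotypes (red points, area by CD8 cells) and in the 127 single-cell clonotypes pooled (blue lines). Nkg7, Cxcr6 and Klrc1 lie above the blue line in 20 of 20 clonotypes and Tcf7, Lef1 and Klf3 below it in 20 of 20, while Ccl4 spreads from 0 to 1401.

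Secreted factors divided by gene. Of 13 cytokine and chemokine genes, 6 were higher and 1 lower by 2-fold or more, with a median log2 ratio of 0.65 (0.69 with equal weights). Ccl4, an inflammatory chemokine (chr11:83648624-83664683), had 855 and 25 UMIs, 255 against 33.2 CPM, a log2 ratio of 2.94 (2.37 to 3.58). It was above the single-cell level in 16 of 20 clonotypes, lowest at 0 CPM in clonotypes 45 and 51 and highest at 1401 CPM in clonotype 35. Ifng, the main effector cytokine, was at 111 against 47.9 CPM (log2 ratio 1.22, 0.72 to 1.75), and 0.90 without clonotype 45, where it reached 976 CPM. Tnf was at 47.7 against 10.6 CPM (2.17, 1.15 to 3.40), and 1.49 without clonotype 35. Ccl1 stood at a log2 ratio of 2.38 and 1.68 without clonotype 6, and Csf2 at 1.61 and 0.72 without the same clonotype. The values of these 4 cytokine genes thus moved with single clonotypes.

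Ccl5, the most abundant chemokine here at 3940 against 3275 CPM, had a log2 ratio of 0.27 (0.20 to 0.33) that was −0.34 with clonotypes weighted equally. Tgfb1 had a ratio of 0.65 (773 against 493 CPM, above in 19 of 20) and Ltb, lymphotoxin β, 0.30. Areg, amphiregulin, was lower, at −1.18 (−2.60 without clonotype 7), with 79.3% of its 29 single-cell UMIs in 1 cell.

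Inhibitory receptors were also higher. Of 9 compared, 4 were higher by 2-fold or more and 0 lower, with a median log2 ratio of 0.79 (0.58 with equal weights). Havcr2, which encodes TIM-3, was at 184 against 46.5 CPM, a log2 ratio of 1.99 (1.49 to 2.52), and 19 of 20 clonotypes, from 37.9 to 500.4 CPM, lay above. Lag3 was at 497 against 190 CPM (1.39, 1.14 to 1.64) and above in 18. Pdcd1, which encodes PD-1, was at 821 against 409 CPM (1.003, 0.83 to 1.18) and above in 19, at the edge of 2-fold. Its ratio was 0.96 to 0.996 when any of clonotypes 7, 8, 16, 17, 19, 25 or 42 was left out, and 0.89 without the 6 marker-bearing cells. Tigit was level, at 293 against 286 CPM (0.04, −0.18 to 0.25), and Ctla4 had a ratio of 0.49. Entpd1, which encodes the ectoenzyme CD39, stood at 1.09 (53.7 against 25.3 CPM), above in 18 of 20, and at 0.997 without clonotype 7 and 0.97 without the marker-bearing cells. After thinning to 1000 UMIs, Pdcd1 was seen in 49.9% of expanded and 22.8% of single-cell cells (86.5% and 44.9% before) and Lag3 in 33.3% and 15.7% (73.5% and 31.5%). For Havcr2 the thinned shares were 14.5% and 3.15%, from 51.4% and 15.7%. Before thinning, the far deeper MC38 or stromal cells had 0.633% for Pdcd1, 6.96% for Lag3 and 7.59% for Havcr2.

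Transcription factors tied to exhaustion did not follow the receptors. Of 8, 0 were higher and 1 lower by 2-fold or more, with a median log2 ratio of −0.15 (−0.35 with equal weights, 0.21 without dividing cells). Tox, a driver of exhaustion, was at −0.96 on 39 and 17 UMIs, and at −1.56 without clonotype 7. Bhlhe40 stood at 0.28, Rbpj, the Notch pathway factor, at 0.73, and the activation-induced Nr4a2 and Nr4a1 at −0.23 and −0.52. Without the marker-bearing cells Nr4a1 was at −0.16 (−0.49 to 0.17). Ikzf2, which encodes Helios, was at 101 against 206 CPM (−1.02, −1.30 to −0.74), below in 20 of 20 clonotypes, and short of 2-fold without clonotype 5 (−0.89), 10, 12, 17, 28 or 33. Among 11 effector factors, 1 was higher and 1 lower, with a median of 0.42. Id2, which favors effector over memory fate, was at 479 against 205 CPM (1.23, 0.99 to 1.48) and above in 19 of 20, and Hif1a, the hypoxia factor, at 556 against 334 CPM (0.74, 0.54 to 0.93), above in 20. Tbx21, which encodes T-bet, had a ratio of 0.65, Irf8 0.73, and Eomes −1.33 on 39 and 22 UMIs.

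Genes of naive and memory cells had the median furthest from 0 of the 16 lists. Of 14 compared, 0 were higher and 10 lower by 2-fold or more, with a median log2 ratio of −1.78 (−1.88 with equal weights). Tcf7, which encodes TCF-1, the factor of stem-like T cells, was at 20.6 against 149 CPM (−2.86, −3.31 to −2.41). Lef1, its partner, was at 35.8 against 124 CPM (−1.79), and Klf3, a repressor of the Krüppel family, at 6.56 against 97.0 CPM (−3.89). All 3 were below the single-cell level in 20 of 20 clonotypes.

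Ccr7, the chemokine receptor for lymph node entry, was at 250 against 505 CPM (−1.01, −1.19 to −0.83), below in 18 of 20 clonotypes. It was short of 2-fold without clonotype 5 (−0.88), 6, 16, 17, 35, 42, 45 or 51 and without the marker-bearing cells (−0.99). S1pr1, the exit receptor, stood at −1.78 and at −2.37 without clonotype 5. Bach2 had a ratio of −1.39, Slamf6 −1.93, and Klf2 −2.23 with 55.5% of its single-cell UMIs in 1 cell. Satb1 was at −0.58. Il7r and Ly6c2, also on the list, were level, at 0.10 (−0.14 to 0.36) and −0.01 (−0.11 to 0.09). Ccr7, S1pr1 and the stem-like factors were thus lower in expanded clonotypes, while the intervals of Il7r and Ly6c2 include 0.

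At 1000 UMIs per cell, Tcf7 was found in 2.11% of expanded and 13.4% of single-cell cells (8.63% and 44.9% before thinning). The MC38 or stromal cells gave 2.55% thinned and 48.1% before. At equal depth the expanded share was thus no higher than theirs, and the single-cell share was above it. Whether the MC38 or stromal cells express Tcf7 themselves was not tested, so their share is not a measure of background for this gene. Lef1 was found in 3.58% and 11.8% of thinned cells, and Ccr7 in 11.4% and 27.6%. Neither was found in thinned MC38 or stromal cells.

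**Figure D3:**
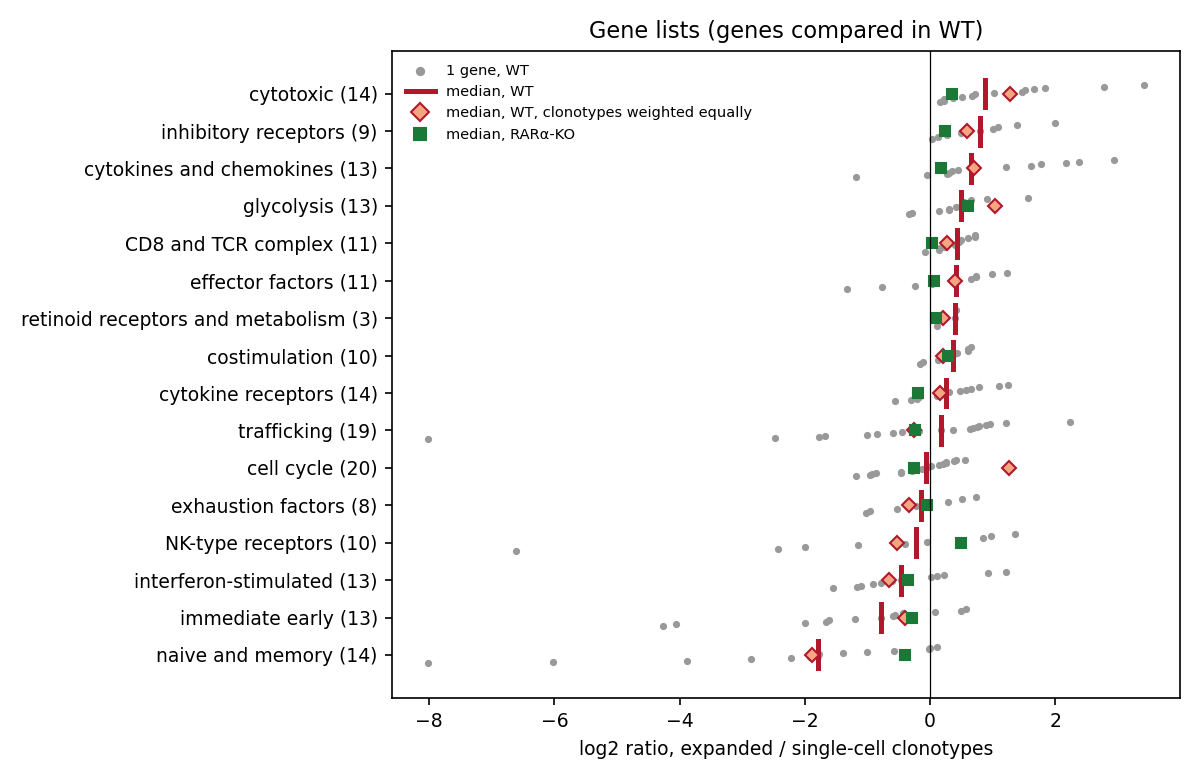
Log2 ratio of expanded to single-cell clonotypes for each gene (grey points) of 16 lists, with the number of genes compared in brackets, the WT median (red bar), the WT median with clonotypes weighted equally (diamond) and the RARα-KO median (green square). Naive and memory genes have the lowest WT median (−1.78) and cytotoxic genes the highest (0.87), and the cell cycle median shifts from −0.06 to 1.26 under equal weights.

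Among 10 NK-type receptor genes, 1 was higher and 4 lower by 2-fold or more. The median log2 ratio of −0.23 was positive under 4 other settings, at 0.65 after thinning to 1000 UMIs per cell, 0.36 without single-cell clonotypes that lacked a chain or shared one, 0.16 without cells of 2 or more TRB and 0.49 with a filter at 0.5 UMIs per cell. Klrc1, Klrk1 and Klre1, which encode the NKG2A, NKG2D and KLRE1 receptors, were above the single-cell level in 20 of 20 clonotypes, with ratios of 0.96, 0.85 and 1.36. Klrd1, which encodes the NKG2A partner CD94, was at 0.49. Cd7, at −1.996, and Tyrobp, an adaptor protein, at −2.44 (−3.27 without clonotype 7), were lower. Klra7, a Ly49 receptor of NK and memory-like T cells, had 2 UMIs against 44 (−6.62, −9.71 to −4.68), and −7.57 without clonotype 25. Ly49 genes are close copies of each other, so Klra7 reads may be shared with them.

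Of 19 trafficking genes, 2 were higher and 5 lower by 2-fold or more, with a median of 0.17 that became −0.25 under equal weights. Cxcr6, which holds T cells near CXCL16-bearing cells in tissue, was at 634 against 273 CPM (log2 ratio 1.22, 1.01 to 1.43) and above in 20 of 20 clonotypes, from 285 to 1057 CPM. At 1000 UMIs it was found in 41.9% of expanded and 11.0% of single-cell cells. Cx3cr1 had a ratio of 2.24 (0.83 to 4.15) on 84 and 4 UMIs. Cxcr4 was at −1.68, Itga4, an integrin chain for vessel adhesion, at −2.48 (−3.99 without clonotype 7), Cxcr3 at −0.85, Itgb1 at −0.59 and Itgal at 0.36. Of the trafficking genes named here, Cxcr6 alone was above the single-cell level in 20 of 20 clonotypes.

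Cytokine receptor genes differed less. Of 14, 2 were higher and 0 lower by 2-fold or more, with a median of 0.26. Il2rb, a chain of the IL-2 and IL-15 receptors, was at 0.58 and above in 19 clonotypes. Il10ra, at 1.24, and Il1r2, a decoy receptor for IL-1, at 1.10 (0.96 without clonotype 12 and 0.98 without the marker-bearing cells), were the 2 genes past 2-fold. Il2rg, Il21r and Ifngr1 were at 0.17, −0.17 and −0.30. In the costimulation list, 0 of 10 passed 2-fold in either direction (median 0.36), with Icos at 0.43, Tnfrsf9 (4-1BB) at 0.60, Tnfrsf18 (GITR) at 0.21 and Cd2 at 0.12. In the CD8 and receptor complex list, 0 of 11 did (median 0.42). Cd3g stood at 0.72 and above in 20 of 20 clonotypes, Cd3e at 0.46 and Cd3d at 0.40, and Cd8a, at 0.61, served in the gate.

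Retinoid genes were sparse, with 3 of 15 compared. Rara, the gene altered in the other genotypes of the study, was at 88.9 CPM in expanded and 67.8 CPM in single-cell clonotypes (log2 ratio 0.39, −0.04 to 0.85), an interval that includes 0, with 16 of 20 clonotypes above. Rxrb, which encodes a partner receptor, was at 0.42 (−0.31 to 1.22) and Rarg at 0.11 (−0.89 to 1.26).

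The values of proliferation and immediate early genes turned on few cells. A UMI of Mki67 or Top2a, which mark dividing cells, was found in 103 of 475 expanded cells (21.7%) and 19 of 127 single-cell cells (14.96%), against 30.7%, 25.5%, 25.7% and 19.9% in clonotypes of 2 to 4, 5 to 9, 10 to 19 and 20 or more cells. These shares are not matched for depth, which was lower in the single-cell class. Pooled log2 ratios were negative, at −0.95 for Mki67 and −0.47 for Top2a. Without the marker-bearing cells they were −0.61 (−1.02 to −0.19) and 0.36 (−0.06 to 0.82). The 20 cell cycle genes had a median log2 ratio of −0.06, 1.26 with clonotypes weighted equally and 0.38 without the 3 expanded and 3 single cells that held 10 or more UMIs of MC38, stromal, myeloid or B cell markers. H2afz, a histone, and Hmgb2, a chromatin protein, stood at −0.06 and 0.13, and the tubulins Tubb5 and Tuba1b at −0.46 and −0.28. Without the marker-bearing cells Tubb5 was at 0.16 (−0.03 to 0.35) and Tuba1b at 0.52 (0.28 to 0.75). The sign of this list was therefore not settled.

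Of 13 immediate early genes, 0 were higher and 6 lower, with a median of −0.79 (−0.40 with equal weights). Jun at −4.06 and Fos at −4.27 had 95.4% and 89.9% of their single-cell UMIs in 1 cell, and without the 6 marker-bearing cells they stood at −0.76 and −1.31 and the list's median at −0.14. The more evenly spread members lay on both sides of 0, with Jund at 0.49, Dusp2 at 0.57, Junb at −0.56 and Nfkbia at −0.44. Of 13 glycolysis genes, 1 was higher, with a median of 0.50 (1.03 with equal weights), and Gapdh (7958 against 5451 CPM) and Eno1 were above in 20 of 20 clonotypes, both at 0.55. Ldha was at 0.30 and Pkm at 0.42. Without the marker-bearing cells Gapdh, Eno1, Ldha and Pkm stood at 0.73, 0.95, 0.62 and 0.71. Of 13 interferon-stimulated genes, 1 was higher and 3 lower, with a median of −0.47, Ifi27l2a at −1.11 (−0.98 without clonotype 7), Bst2 at −0.79 and Ly6a at 0.22. Without the marker-bearing cells Bst2 was at −0.37 and Ly6a at 0.43.

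The 12 genes of largest positive ratio, among those higher in both calculations and in at least 15 clonotypes, were led by low counts. Mtss1, a membrane-shaping protein, had 57 UMIs against 1 (log2 ratio 3.68, 1.14 to 9.01). Rgs8, a regulator of G protein signalling, had 127 UMIs against 0, at least 9.50-fold higher when 3 UMIs are set for the single-cell class. Gdpd5, Stk32c, Cd80, Slc39a3, Tbxa2r, Ptpn3 and Pcnx rested on 2 to 4 single-cell UMIs, with ratios of 2.34 to 2.87 and lower interval ends of 0.50 to 0.98. Gdpd5 was above in 20 of 20 clonotypes and Cd80, a costimulatory ligand, in 15. Ccl4 and Gzma were the 2 of the 12 with more than 20 single-cell UMIs.

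The 12 of largest negative ratio were below the single-cell level in 20 of 20 clonotypes. They were selected for being below it in at least 15. All but Fos, with 39, had 0 to 5 UMIs in the expanded class, so most clonotypes were at 0. The count of clonotypes therefore adds little to the ratios. Beside Klra7 was Id3, an inhibitor of E proteins kept in memory precursors, with 2 UMIs against 29 (−6.01, −9.13 to −4.03). Oasl2, an interferon-induced gene, had 1 against 13 UMIs (−5.86, −11.27 to −3.12), its 1 expanded UMI being in clonotype 7, Rflnb, refilin B, 2 against 22 (−5.62, and −6.57 without clonotype 51) and Patj 2 against 14 (−4.96, and −5.86 without clonotype 8). Id3 was at −6.95 without clonotype 16. Atp1b1, a sodium pump subunit, had 0 UMIs against 31 in 19 cells, at least 46.1-fold lower with 3 UMIs set for the expanded class. Nsg2 and Pde2a, a phosphodiesterase, had 4 against 27 and 5 against 29 UMIs. P4ha2 and Igkv1-135, an immunoglobulin segment, owed all of their 21 and 19 single-cell UMIs to 1 cell each, and Fos 89.9% of its 169. Without the marker-bearing cells, Oasl2 had 0 UMIs in the expanded class and P4ha2 and Igkv1-135 were at 0 in both classes, and Rflnb, Pde2a and Slc39a3 stood at −6.44, −5.44 and 3.28.

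The genes shown differed in how their level went with clonotype size. Tcf7 was at 149 CPM in single-cell clonotypes and at 29.0, 18.8, 30.9 and 15.5 CPM in clonotypes of 2 to 4, 5 to 9, 10 to 19 and 20 or more. Cxcr6 was at 273, then 649, 717, 605 and 648 CPM, and Pdcd1 at 409, then 852, 825, 720 and 870 CPM. At 2 to 4 cells these 3 genes already lay within the range of the larger classes. Prf1 was higher in each larger class, from 133 through 247, 292 and 334 to 385 CPM, and Ccr7 went from 505 through 376, 331 and 263 to 244 CPM. The class of 20 or more includes clonotype 12, which had the highest Prf1 of the expanded clonotypes, 892 CPM. Without clonotype 12 the Prf1 log2 ratio of the expanded class was 1.28, and the last step of Prf1 was not computed without it. Gzma was at 187, 404 and 249 CPM below 10 cells and at 1361 and 1238 CPM above. The step at 10 cells came with 4 clonotypes, described below, that pooled to 4663 CPM, while the other 16 expanded clonotypes pooled to 397 CPM. Just inside the threshold, 4 clonotypes of 10 to 12 cells (44 CD8 cells) had 1624 CPM of Gzmb, 114 of Havcr2 and 530 of Cxcr6. Just outside it, 5 clonotypes of 7 to 9 cells (39 CD8 cells) had 1227, 116 and 729 CPM.

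**Figure D4:**
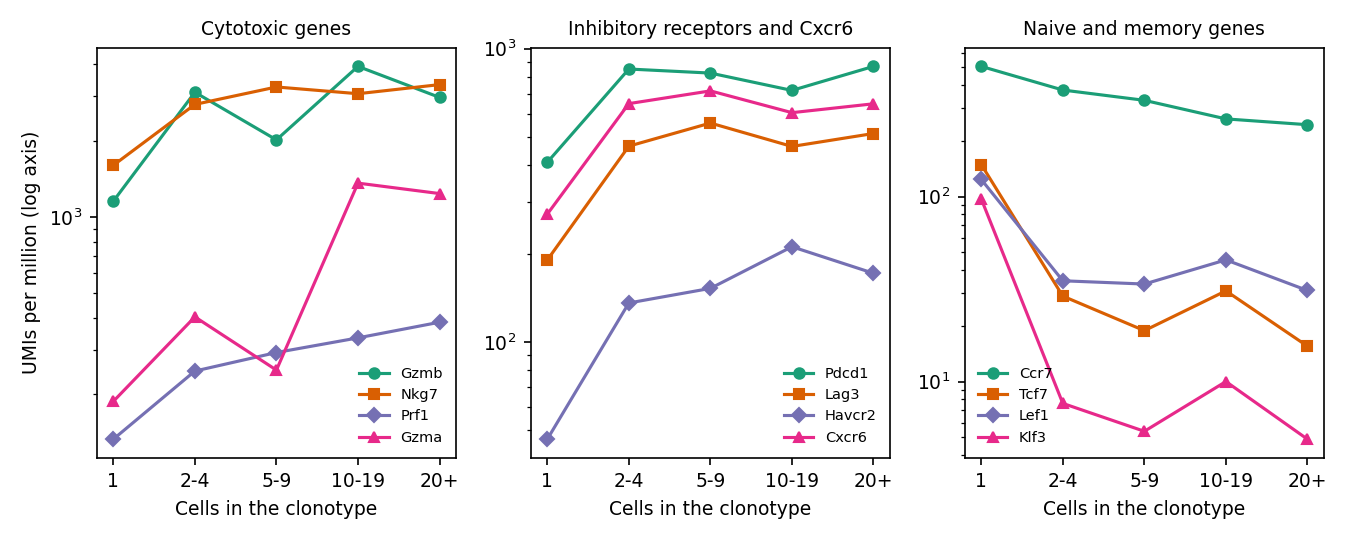
Level of 12 genes (CPM, log axis) in WT CD8 cells grouped by the number of cells in their clonotype (127, 88, 102, 148 and 327 cells from left to right), 1 library without error bars. Cxcr6 and Pdcd1 at 2 to 4 cells lie within the range of the larger classes, Klf3 is at 97.0 at 1 cell and 7.62 at 2 to 4, and Prf1 is higher in each larger class.

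The expanded clonotypes differed among themselves. Among 998 genes with 1 or more UMIs per expanded cell, the median share of cell-to-cell variance that lay between clonotypes was 1.25%, and the 99th percentile was 17.8%. The genes named here were chosen after their values were seen. Ly6c2, a surface protein of memory and effector CD8 cells, had the highest share, 41.0%, from 122 CPM in clonotype 45 to 3743 CPM in clonotype 33. Lag3 followed at 29.5%, from 63.2 to 862 CPM, then Crip1 at 28.4% and Gzmk at 24%. Ly6c2 was level in the class comparison above, so the pooled value stood for clonotypes on both sides of it.

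Gzma was high in 4 clonotypes. Clonotypes 33, 17, 5 and 35, with no CDR3 in common among the sequences shown, had Gzma at 5947, 5591, 4050 and 3739 CPM. The other 16 ran from 16.6 CPM in clonotype 8 to 1207 CPM in clonotype 28, with a median of 330. These 4, 118 cells chosen for their Gzma, held 75.4% of the Gzma UMIs of the expanded class, and 46.8% to 62.5% of their cells had a Gzma UMI. Of 2010 genes with 0.5 or more UMIs per expanded cell, Gzma included, 13 (0.647%) were higher in all 4 than in each of the other 16, and 10 (0.498%) were lower in all 4.

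On the high side were Gzmk, granzyme K, at 250 to 696 CPM in the 4 and 0 to 162 in the others, and Ly6c2 at 2887 to 3743 against 122 to 1774. Fgl2, a fibrinogen-like protein, was at 300.9 to 443 against 45 to 279 CPM. On the low side were Lag3 at 63.2 to 227 against 300.7 to 862 CPM, Irf8 at 34.8 to 151 against 213 to 713, and Tnfrsf4, which encodes OX40, at 18.9 to 56.9 against 58.2 to 463. Gzmd and Gzme were at 0 to 82.2 and 0 to 6.32 CPM in the 4, and reached 1682 and 2073 CPM among the others, where some clonotypes were also at 0. Nkg7 was at 3048 to 3849 CPM in the 4 and 1634 to 4211 CPM in the others.

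Several class values differed between these 4 clonotypes and the others. Clonotype 5 supplied 62 of the 118 cells of the 4, so it weighs most in their pooled values. Against the single-cell class, Gzma had a log2 ratio of 4.64 in the 4 and 1.08 (0.83 to 1.35) in the other 16, a difference set by the choice of the 4. Lag3 was at −0.36 (−0.73 to 0.02) in the 4 and 1.63 in the others, Irf8 at −1.40 and 0.997, Gzmf at 0.00 and 2.08, and Ly6c2 at 1.19 and −0.61. Havcr2 was higher in both, at 1.29 and 2.12. The mouse that each clonotype came from was not given, so clonotype and mouse cannot be told apart.

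**Figure D5:**
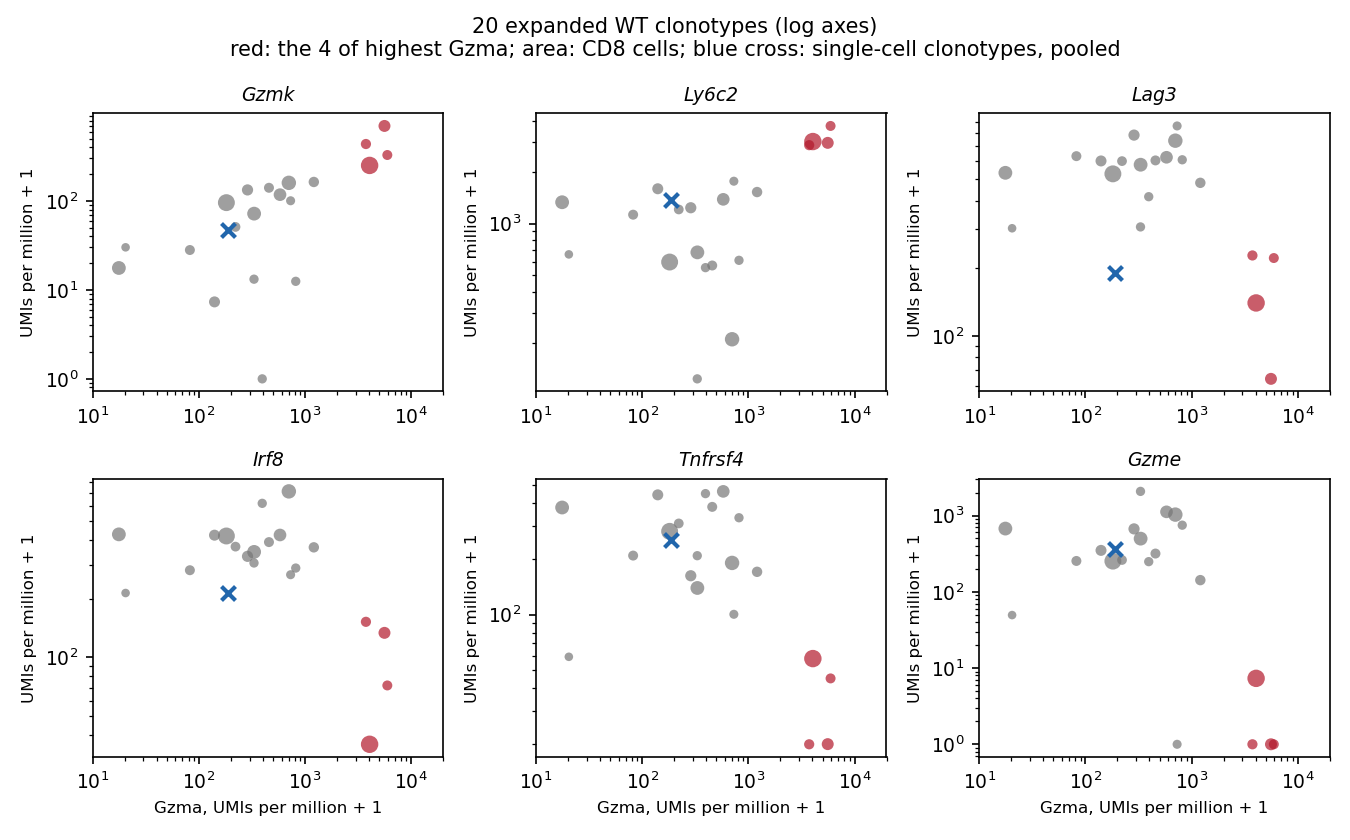
Level of 6 genes against Gzma (both CPM plus 1, log axes) in the 20 expanded WT clonotypes (area by CD8 cells), with the 4 of highest Gzma in red and the pooled single-cell clonotypes as a blue cross. The red points have Gzmk of 250 to 696 and Ly6c2 of 2887 to 3743, above the other 16, and Lag3, Irf8 and Tnfrsf4 below them.

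The same comparison was made in RARα-KO cells. RARα-KO had 736 CD8 cells in 26 expanded clonotypes (70.8% of 1039) and 96 single cells. In RARα-TG, 0 of 101 CD8 cells were in an expanded clonotype, which allows a share of up to 3.59% by the exact binomial interval, so no comparison could be made there. Of 6750 genes compared in RARα-KO, 154 were higher by 2-fold or more (2.28%) and 211 lower (3.13%). Among the 6366 genes compared in both genotypes, 22 were higher in both, 10.6% of the 207 WT and 16.2% of the 136 RARα-KO genes. Likewise 32 were lower in both, 18.2% of 176 and 29.9% of 107. Of the 176 lower in WT, 15 were higher by 2-fold or more in RARα-KO, and of the 207 higher in WT, 2 were lower. The MC38 and stromal marker genes also changed direction. Of 4 compared, 3 were lower by 2-fold or more in WT (median log2 ratio −1.79) and 3 were higher in RARα-KO (2.21). The part of MC38 or stromal RNA in the opposite calls was not tested.

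Leading genes are given side by side. Lag3 was at a log2 ratio of 1.39 in WT and 1.06 in RARα-KO, Prf1 at 1.47 and 1.20, Tcf7 at −2.86 and −2.29, Ikzf2 at −1.02 and −1.28 and Cd7 at −1.996 and −1.83. Gzmb was at 1.51 (1.41 to 1.61) in WT and 0.95 (0.88 to 1.02) in RARα-KO, short of 2-fold there. Ccl4 was at 2.94 and 0.32, with 255 against 33.2 CPM in WT and 2493 against 1994 CPM in RARα-KO. Gzmf was at 1.84 and 5.56, the RARα-KO value resting on 10 single-cell UMIs and on expanded clonotypes with a median of 44.3 CPM and a highest of 7150 CPM. Klf3 was at −3.89 and −1.09, Klf2 at −2.23 and 0.12 and Pdcd1 at 1.003 and 0.15. The naive and memory median was −1.78 in WT and −0.40 in RARα-KO, and the cytotoxic median 0.87 and 0.35. Gzma was at 2.77 in WT, with 1278 CPM in expanded and 187 CPM in single-cell clonotypes, and at −0.43 (−0.54 to −0.32) in RARα-KO, with 985 and 1327 CPM. The 26 RARα-KO expanded clonotypes ran from 25 to 3254 CPM with a median of 737, and 0 reached the lowest of the 4 WT clonotypes. With 1 pooled sample per genotype, the difference between genotypes was not tested.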

How the data were processed

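The deposited gene and hashtag matrix held raw UMI counts, which the authors made with Cell Ranger from a pooled 10x 5′ library on GRCm38 (mm10), and the deposited contig annotation gave each barcode's chains, UMI counts and clonotype number. The submitters' processing notes name Cell Ranger 6.1.0. Barcodes were grouped by hashtag, gated and sized as stated above; hashtags removed doublets between genotypes, and no doublet caller was run, so doublets within WT remain. UMIs were summed per class and divided by the class total (CPM), leaving out 268 T cell receptor genes. Intervals are exact binomial at 95%, 0 counts were bounded at 3 UMIs over the class, and a call was 2-fold. Equal weighting took the mean CPM over clonotypes. Shares were recomputed after thinning to 1000 UMIs, and the ratio step was tested on simulated data. Text names the 12 largest ratios in each direction (called in both calculations, on 1 side in 15 clonotypes) and the 4 most abundant genes of each list, with other genes chosen after their values were seen. The members and lists were chosen with earlier results of these data known. Positions are from RefSeq on GRCm38.p6. Python 3.11.15, numpy 2.4.6, scipy 1.17.1 and pandas 2.3.3 were used. Alternatives were other size limits, weights, filters, hashtag and chain rules, thinning, removal of dividing cells and leaving out each clonotype. Some genes that these rules select are not reported here.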

Additional observations from a re-analysis of the deposited data

Results flagged for a closer look

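Of the named genes, 3 had a ratio on opposite sides of 0 in WT and RARα-KO with both intervals clear of 0, and the difference between genotypes was not tested. Gzma was at a log2 ratio of 2.77 in WT and −0.43 (−0.54 to −0.32) in RARα-KO, and its single-cell level was 187 CPM in WT and 1327 CPM in RARα-KO. Ltb was at 0.30 (0.14 to 0.47) and −0.19 (−0.32 to −0.05), and Il2rg at 0.17 (0.05 to 0.30) and −0.21 (−0.35 to −0.07).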

How the results depend on the processing

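No paired analysis was possible because WT was 1 pooled sample. Limits on these values were the 752271 UMIs of the single-cell class, where 1 UMI is 1.33 CPM, and single cells that hold most UMIs of a gene. The 256 higher genes became 513 with clonotypes weighted equally, 392 without cells with Mki67 or Top2a, 102 of the 1735 genes left after thinning, 708 of 11089 without the filter on low levels and 50 of 2092 with a filter at 0.5 UMIs per cell, against 6791 genes compared. Thinning thus called 5.88% higher, and 30 of its 102 were among the 256. The 269 lower genes became 79, 1169 and 48 after thinning, without the filter and at 0.5. Without the marker-bearing cells, 6543 genes were compared. Of these, 274 were higher, with 206 of them among the 256, and 199 were lower, with 160 of them among the 269. Leaving out each clonotype gave 243 to 279 higher and 257 to 293 lower, and moved neither count by more than 1.5 times. Each list median stayed within the counting interval of the middle gene or genes of its list. Such an interval is wide for some lists, as for inhibitory receptors (−0.35 to 2.17), so staying within it says little. The inhibitory receptor median itself ran from 0.72 to 0.98 over these settings. A minimum of 1000 UMIs removed no cell. Among lists, the cytotoxic median of 0.87 was 1.28 with equal weights, 1.60 without single-cell clonotypes that lacked a chain or shared one, 1.12 without cells of 2 or more TRB and 1.18 without dividing cells. The cell cycle median of −0.06 was 1.26 with equal weights, 0.23 thinned, −0.30 for clonotypes of 20 or more and 0.38 without marker-bearing cells, a removal chosen after seeing the data. NK-type receptors (−0.23) gave 0.65 thinned, 0.36 and 0.16 under the chain and TRB rules and 0.49 at the 0.5 filter. Immediate early genes (−0.79) gave −0.23 thinned, −0.018 without dividing cells and −0.14 without marker-bearing cells. Cytokines (0.65) gave 0.95 thinned and 1.19 for clonotypes of 5 or more, naive and memory genes (−1.78) −1.30 thinned, trafficking (0.17) −0.25 and glycolysis (0.50) 1.03 with equal weights, and exhaustion factors (−0.15) 0.21 without dividing cells. The expanded share of 60.0% was 56.4% under a stricter hashtag rule and 55.4% without clonotypes seen in several genotypes. Of the values of single genes under these alternatives, 1209 moved by less than their interval, 151 by more, and 0 called values changed sign. The cause of each shift was not tested.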

Other observations

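Outside the lists, 4359 genes had 20 or more UMIs in the single-cell class with less than 25% of them in 1 cell. Of these, 10 (0.229%) were higher by 2-fold or more in both calculations and above the single-cell level in 20 of 20 expanded clonotypes, and 35 (0.803%) were lower in the same way. These genes were chosen after their values were seen. Among the higher were Lgals3, galectin 3 (1205 against 441 CPM, log2 ratio 1.45, 1.29 to 1.61), Ifitm2, an interferon-induced membrane protein (1156 against 465 CPM, 1.31), Capg, an actin-capping protein (572 against 238 CPM, 1.26), and Glrx, glutaredoxin (146 against 58.5 CPM, 1.32). In RARα-KO the ratios of these 4 genes were 0.15, 0.74, 0.57 and 0.26.

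Among the lower were Socs3, a brake on cytokine signalling (12.2 against 112 CPM, log2 ratio −3.19, −3.77 to −2.64), Zeb1, a repressor (26.8 against 79.8 CPM, −1.57), Irf1, an interferon response factor (118 against 261 CPM, −1.14), and Txk, a Tec family kinase (41.4 against 89.1 CPM, −1.10). Tgtp1, an interferon-induced GTPase, was at −1.998 and Axin2, a Wnt pathway target, was also on the list. In RARα-KO the ratios were −0.80 for Socs3, −0.89 for Zeb1, −0.94 for Irf1, −0.35 (−0.91 to 0.25) for Txk and −1.39 for Tgtp1.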
